A study of Mus musculus with 2 samples.

Results

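The 8 genes described here encode transcription factors that take part in the decision of a CD4+ T cell to become a T follicular helper (Tfh) cell. They are *Bcl6*, *Prdm1*, *Tox*, *Tox2*, *Ascl2*, *Maf*, *Batf* and *Irf4*, and all 8 were present among the 32285 genes of both matrices. Transcripts had been counted in single TCRβ+ cells, that is, cells sorted for the αβ T cell receptor, from spleen pooled with inguinal and cervical lymph nodes. The WT cells came from 1 *Foxp3Cre* WT mouse and the DKO-severe cells from 1 *Foxp3-Cre Tet2/3 fl/fl* mouse with severe disease, both 14 weeks old. Both mice therefore carried a Cre recombinase expressed from the *Foxp3* locus, which is active in regulatory T (Treg) cells and which the study regards as leaky outside them. Cells of both genotypes were marked with hashtag antibodies and shared 1 mRNA library. The comparisons bear on the study's question of whether Treg cells lacking *Tet2* and *Tet3*, and cells derived from them, take on a Tfh program. The study describes FOXP3-negative CD4+ cells of such mice as a mixture of former Treg cells and conventional T cells, and CD8+ T cells as bystanders. DKO-severe therefore names the mouse, and which cells of a gate had lost *Tet2* and *Tet3* was not determined here.

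Tfh cells enter B cell follicles and help B cells to form germinal centres. BCL6 is the defining repressor of this fate, while BLIMP-1, the product of *Prdm1*, drives effector and plasma cell programs, and each represses the gene of the other. The HMG-box factors TOX and TOX2, the helix-loop-helix factor ASCL2 and the AP-1 family members c-MAF and BATF act with BCL6 or ahead of it, with ASCL2 known for inducing the follicular homing receptor CXCR5. IRF4 binds DNA together with BATF downstream of the T cell receptor and serves both Tfh and plasma cell programs.

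TET enzymes oxidise methylated cytosines at CpG sites, so the starts of the antagonists *Bcl6* and *Prdm1*, and of *Ascl2*, which had almost no UMI in WT, are shown with each CpG in capitals. The 250 bases before the RefSeq start sites on GRCm38.p6 lie at chr16:23988853-23989102 for *Bcl6*, chr10:44458749-44458998 for *Prdm1* and chr7:142969265-142969514 for *Ascl2*, all on the minus strand and written 5′ to 3′.
Bcl6: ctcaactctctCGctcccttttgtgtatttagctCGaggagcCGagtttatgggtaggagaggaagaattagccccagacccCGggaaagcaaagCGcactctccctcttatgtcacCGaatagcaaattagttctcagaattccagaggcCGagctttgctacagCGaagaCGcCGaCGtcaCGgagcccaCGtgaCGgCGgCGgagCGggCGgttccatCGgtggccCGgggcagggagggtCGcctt
Prdm1: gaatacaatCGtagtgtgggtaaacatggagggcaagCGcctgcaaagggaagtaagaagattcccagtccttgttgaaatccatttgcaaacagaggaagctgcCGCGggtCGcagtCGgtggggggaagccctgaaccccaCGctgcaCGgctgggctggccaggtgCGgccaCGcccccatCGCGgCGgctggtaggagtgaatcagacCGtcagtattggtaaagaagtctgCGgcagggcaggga
Ascl2: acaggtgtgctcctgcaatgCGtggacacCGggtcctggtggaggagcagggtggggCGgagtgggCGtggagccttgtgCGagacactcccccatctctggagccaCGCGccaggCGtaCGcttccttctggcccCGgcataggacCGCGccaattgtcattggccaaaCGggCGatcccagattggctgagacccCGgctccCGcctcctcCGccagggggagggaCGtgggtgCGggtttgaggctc

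These windows held 21 CpG sites for *Bcl6*, 15 for *Prdm1* and 19 for *Ascl2*, against a median of 6 (quartiles 2 and 16) over 32807 mouse promoters of this length. The table held 11 such windows for 6 of the 8 factors. Across all 11, the CpG count ran from 5 in 2 overlapping windows at a downstream start of *Tox2* to 35 at another start of that gene. A match to TTCNNNGAA, the palindrome shared by BCL6 and STAT factors, was found in both *Bcl6* windows and in 7.02% of all promoters. The AP-1 motif TGANTCA, searched on both strands, was found in the *Prdm1* window and in 6.75% of all promoters. No methylation was measured in these files, and a match only describes the letters.

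The genes differ widely in size and position on GRCm38 (GENCODE vM21). *Ascl2* (ENSMUSG00000009248, chr7:142966829-142969264) spans 2.44 kb, whereas *Tox* (ENSMUSG00000041272, chr4:6686353-6991557) spans 305.2 kb. *Bcl6* (ENSMUSG00000022508) lies at chr16:23965052-23988852, *Prdm1* (ENSMUSG00000038151) at chr10:44437177-44528501 and *Tox2* (ENSMUSG00000074607) at chr2:163203125-163324170. *Maf* (ENSMUSG00000055435) lies at chr8:115682942-115707794, *Batf* (ENSMUSG00000034266) at chr12:85686669-85709087 and *Irf4* (ENSMUSG00000021356) at chr13:30749226-30766976. Because of these differences, and because the library captured transcript ends, levels are compared between samples for 1 gene and not between genes. Whether intronic reads were counted is not given, so the level of a long gene such as *Tox* may include them.

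After filtering, 6585 WT and 6377 DKO-severe cells remained, with medians of 5616 and 8072 UMIs (distinct captured molecules) per cell. Cells were gated on transcripts, and gates are named for them. The Cd4 gate (a *Cd3* UMI, a *Cd4* UMI and no *Cd8a* or *Cd8b1* UMI) was split by *Foxp3* into 1675 WT and 2413 DKO-severe Foxp3-negative cells and 64 and 336 Foxp3-positive cells. A missed *Foxp3* transcript places a Treg cell in the Foxp3-negative gate. The Cd8 gate held 3053 WT and 1736 DKO-severe cells, the innate-like gate (2 or more UMIs of *Zbtb16*, encoding PLZF) 78 and 111, and the B gate (UMIs of 2 or more B cell genes and no *Cd3* UMI) 15 and 216. The 4 T cell gates had their 6 T cell markers at a summed 4014 to 6733 CPM. CPM, the level used throughout, is the UMIs of a gene per 1000000 UMIs of a gate, with exact 95% intervals. Every interval given covers only the error of counting. Each genotype was 1 mouse, so there is no replicate and no difference between genotypes was tested. In summed counts of this kind more cells with a transcript and more transcript per cell cannot be told apart, which the shares of cells given further on address.

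In Foxp3-negative Cd4-gated cells all 8 factors were higher in DKO-severe than in WT. Each was 2-fold or more higher, and the median log2 ratio of the 8 was 1.77. Over the 8299 genes with a mean of 10 CPM or more the median was 0.10, and 9.13% were 2-fold or more higher. *Prdm1* and *Ascl2* lay under that level, and the other 6 factors, all 2-fold or more higher, are the ones that compare with this share. The largest ratios belonged to *Ascl2*, *Tox2* and *Maf* and the smallest to *Bcl6* and *Prdm1*. Over the alternative settings the number of factors that reached 2-fold was between 6 and 8.

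The antagonists *Bcl6* and *Prdm1* were both higher, by a similar factor. *Bcl6* stood at 46.1 CPM (42.0 to 50.6, 451 UMIs) in WT and 93.3 CPM (89.4 to 97.3, 2175 UMIs) in DKO-severe, a log2 ratio of 1.02 (0.87 to 1.17). *Prdm1* was much more sparsely counted, at 5.52 CPM (4.15 to 7.21, 54 UMIs) and 11.9 CPM (10.5 to 13.4, 277 UMIs), a log2 ratio of 1.11 (0.68 to 1.55). The number of *Bcl6* UMIs per *Prdm1* UMI, which is read here only between samples, was 8.35 (6.29 to 11.3) in WT and 7.85 (6.93 to 8.93) in DKO-severe, so the balance of the pair at the level of the gate did not differ beyond counting error.

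Among the HMG-box factors, *Tox* and *Tox2* differed in size of change. *Tox*, which is also induced by chronic stimulation, was at 684 CPM in WT (667 to 700) and 1692 CPM in DKO-severe (1676 to 1709), a log2 ratio of 1.31 (1.27 to 1.35). *Tox2* went from 14.7 CPM (12.4 to 17.3) to 128 CPM (123 to 133), a log2 ratio of 3.12 (2.88 to 3.37). For *Ascl2* only 2 UMIs were counted in WT against 180 in DKO-severe, 0.205 CPM (0.0248 to 0.739) and 7.72 CPM (6.63 to 8.93). The observed log2 ratio of *Ascl2* was 5.24 (3.36 to 8.30), or 4.65 with the WT count set to the floor of 3 UMIs.

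The AP-1 and IRF factors were higher as well. *Maf*, which is needed for *Il21* and *Il10* transcription, was at 59.7 CPM (55.0 to 64.8) in WT and 464 CPM (456 to 473) in DKO-severe, a log2 ratio of 2.96 (2.84 to 3.08). *Batf* was at 45.6 CPM (41.5 to 50.1) and 139 CPM (134 to 143), a log2 ratio of 1.60 (1.46 to 1.75). *Irf4* was at 12.4 CPM (10.3 to 14.8) and 47.6 CPM (44.9 to 50.5), a log2 ratio of 1.94 (1.67 to 2.23). The intervals of WT and DKO-severe were apart for each of the 8 genes in this gate.

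**Figure D1:**
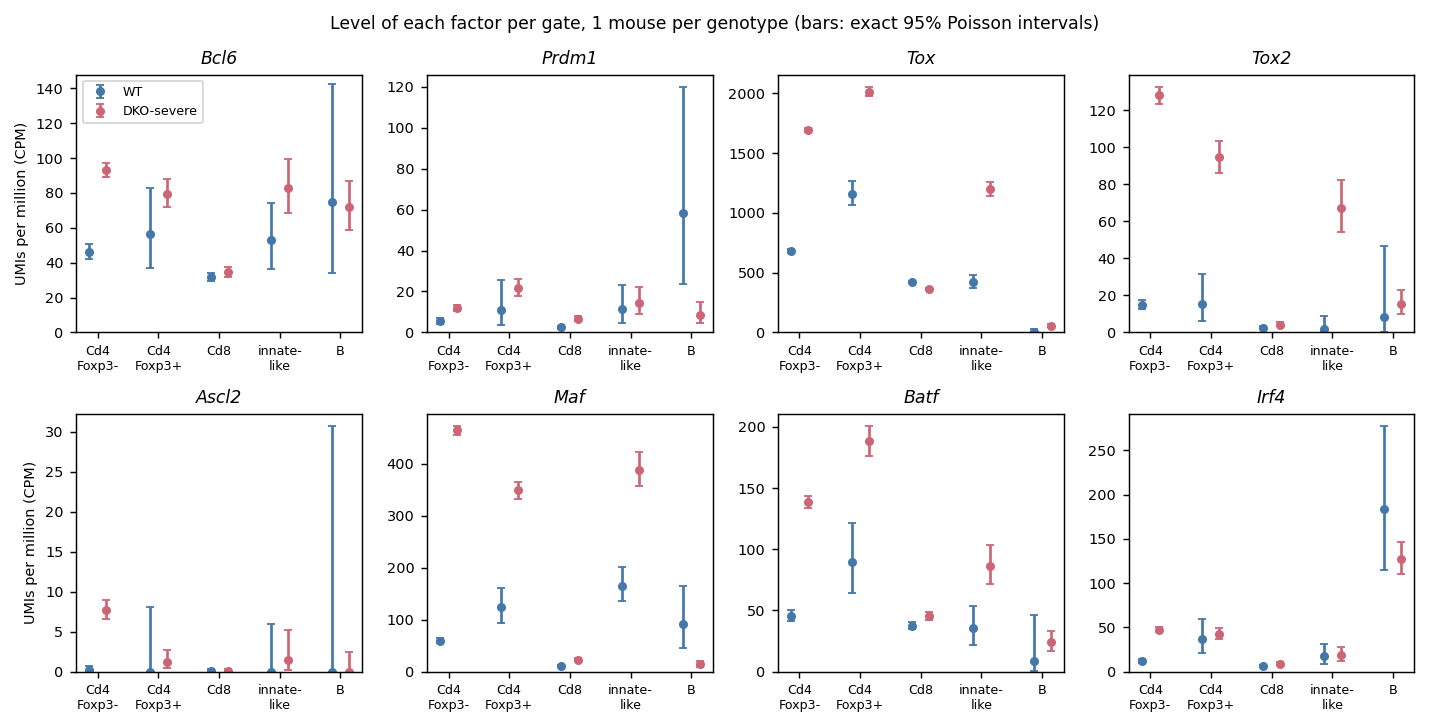
Level of each factor in CPM (vertical axis from 0, own scale per panel) in 5 gates, for the WT mouse (blue) and the DKO-severe mouse (red). Points are the sum over all cells of a gate and bars are exact 95% Poisson intervals. In the Foxp3-negative Cd4 gate the red point lies above the blue one in all 8 panels, as for *Maf* at 464 against 59.7 CPM, while in the Cd8 gate *Bcl6* and *Batf* differ little and *Tox* is lower in red.

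RNA of other cells was present in this gate and differed between the mice. The 6 granulocyte markers summed to 85.2 CPM in WT but 2824 CPM in DKO-severe, led by *S100a9*, and the 6 monocyte markers to 58.6 and 429 CPM, led by *Lyz2*. Plasma cells express *Prdm1* and *Irf4*, and their 6 markers summed to 362 CPM in WT, mostly *Jchain*, and to 80.9 CPM in DKO-severe, where *Tnfrsf17* was at 0. Proliferation markers were at 84.4 and 359 CPM. The part of these cells in the levels of the factors was not tested beyond the following. Without cells that held 2 or more granulocyte or monocyte marker UMIs (208 WT and 526 DKO-severe cells), 7 of 8 factors were 2-fold or more higher and *Bcl6* was at a log2 ratio of 0.92. Without proliferating cells the count was also 7.

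The 43 other genes of the Tfh pathway did not all move with the factors in Foxp3-negative cells. Over all genes with a mean of 10 CPM or more, 9.13% were 2-fold or more higher and 3.59% 2-fold or more lower in this gate. Of 13 surface receptors and ligands, 8 were 2-fold or more higher and 0 were 2-fold or more lower, among them *Pdcd1* (2.64 on the log2 scale), *Cd200* (2.45), *Icos* (2.11) and *Cxcr5* (1.33). All 5 cytokines were 2-fold or more higher, with *Il21*, the signature cytokine of Tfh cells, at 27 UMIs in WT and 1941 in DKO-severe, a log2 ratio of 4.91 (4.37 to 5.52). *Il10*, *Il2* and *Il4* lay under a mean of 10 CPM, so only *Il21* and *Ifng* compare with the share over all genes. Among 8 other factors that favour the fate, 2 were higher, *Pou2af1* at 2.29 and *Nfatc1* at 1.07, but *Lef1* and *Bach2* were lower at -2.17 and -1.58. *Tcf7*, which acts upstream of *Bcl6*, was lower at -0.99 (-1.04 to -0.93). Of 9 factors that oppose the fate, *Id2* was higher at 1.38 and *Foxo1* lower at -1.20. Short of 2-fold, *Tbx21* (0.995, 0.67 to 1.33), *Gata3* (0.62) and *Runx3* (0.22) were higher, and *Stat5b* (-0.74) and *Klf2* (-0.42) lower. The homing genes *Ccr7*, *Selplg* and *S1pr1* were lower at -1.96, -1.53 and -1.47, whereas *Cxcr3* was higher at 0.50 (0.27 to 0.73).

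In Foxp3-positive Cd4-gated cells the ratios were smaller and the WT side was thin. Only 3 of the 7 factors that allowed a ratio reached 2-fold, *Tox2*, *Maf* and *Batf*, where 10.3% of the 8451 genes with a mean of 10 CPM or more did, and the median of the 7 was 1.00. *Tox2* stood at 15.2 CPM (6.13 to 31.4, 7 UMIs) in WT and 94.6 CPM (86.2 to 103.7) in DKO-severe, a log2 ratio of 2.63 (1.58 to 3.96). *Maf* stood at 124 CPM (94.0 to 161) and 349 CPM (332 to 366), a log2 ratio of 1.49 (1.11 to 1.90). *Batf*, which Treg cells of tissues also use, stood at 89.3 CPM (64.1 to 121) and 188 CPM (176 to 201), a log2 ratio of 1.07 (0.62 to 1.56).

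The remaining factors of that gate fell short of 2-fold or could not be placed. *Tox* went from 1161 CPM (1065 to 1264) to 2015 CPM (1975 to 2055), a log2 ratio of 0.80 (0.67 to 0.92). For *Bcl6*, at 56.6 CPM (37.0 to 83.0, 26 UMIs) and 79.7 CPM (72.0 to 88.0), the log2 ratio of 0.49 (-0.08 to 1.13) had an interval that included 0. That was also the case for *Prdm1*, at 10.9 CPM (5 UMIs) and 21.7 CPM (106 UMIs) with a log2 ratio of 1.00 (-0.27 to 2.65), and for *Irf4* at 0.21 (-0.50 to 1.02). *Ascl2* had 0 UMIs in WT, which allows up to 8.04 CPM, and 6 UMIs (1.23 CPM) in DKO-severe. Granulocyte markers were again unequal here, 76.2 against 3693 CPM. With proliferating cells left out, 5 of the factors reached 2-fold.

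Within the DKO-severe mouse the levels of the factors divided by *Foxp3*, although the shares of cells at equal depth, given further on, were apart only for *Prdm1*. Higher in Foxp3-positive than in Foxp3-negative cells were *Prdm1* (log2 0.87, 0.53 to 1.2), *Batf* (0.44, 0.33 to 0.55) and *Tox* (0.25, 0.22 to 0.28). Lower were *Ascl2* (-2.65, -4.12 to -1.50), *Tox2* (-0.44, -0.58 to -0.29), *Maf* (-0.41, -0.49 to -0.34) and *Bcl6* (-0.23, -0.39 to -0.07), while the interval of *Irf4* included 0. The *Bcl6* to *Prdm1* UMI ratio was accordingly 3.67 (2.95 to 4.59) in Foxp3-positive and 7.85 in Foxp3-negative cells of this mouse. In the WT mouse the values pointed elsewhere for *Maf*, which was higher in Foxp3-positive cells at 1.06 (0.64 to 1.45), and for *Irf4* at 1.58 (0.76 to 2.32). Median depth differed, at 11608 UMIs in Foxp3-positive and 7969 in Foxp3-negative DKO-severe cells.

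In Cd8-gated cells the genotypes differed little for most factors. Ratios of 2-fold or more were seen for 2 of 7 factors, *Prdm1* and *Maf*. Among the 4 factors with a mean of 10 CPM or more it was 1, *Maf*, where 2% of the 7818 genes at that level reached it. Granulocyte markers were at 78.0 CPM in WT and 1407 in DKO-severe Cd8-gated cells, and with the cells that held 2 or more granulocyte or monocyte marker UMIs left out 2 factors again reached 2-fold. *Prdm1*, which marks effector CD8+ T cells, was at 2.52 CPM (1.89 to 3.30) in WT and 6.59 CPM (5.41 to 7.95) in DKO-severe, a log2 ratio of 1.38 (0.90 to 1.89). *Maf* was at 11.3 CPM (9.90 to 12.8) and 23.2 CPM (21.0 to 25.7), a log2 ratio of 1.04 (0.80 to 1.28). Both are low counts, and with 5 CPM added to each level no factor reached 2-fold.

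*Bcl6* in the Cd8 gate was at 31.7 CPM (29.3 to 34.2) and 34.5 CPM (31.7 to 37.4), a log2 ratio of 0.12 (-0.04 to 0.29). *Tox* was the one factor that was lower in DKO-severe, at 420 CPM (411 to 429) in WT and 366 CPM (357 to 375), a log2 ratio of -0.20 (-0.24 to -0.15). *Tox2* was at 0.75 (0.21 to 1.29), *Irf4* at 0.41 (0.07 to 0.76) and *Batf* at 0.27 (0.12 to 0.41), and *Ascl2*, with 2 and 1 UMIs, allowed no ratio. The number of *Bcl6* UMIs per *Prdm1* UMI was 12.5 (9.48 to 16.9) in WT and 5.23 (4.25 to 6.48) in DKO-severe Cd8-gated cells.

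**Figure D2:**
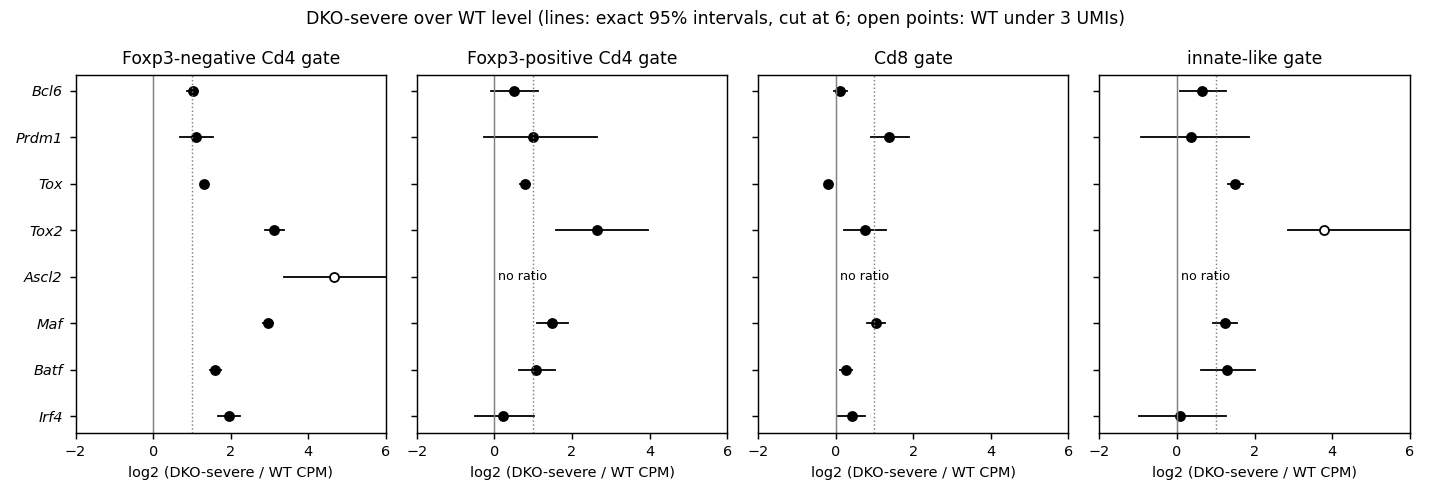
Log2 ratio of DKO-severe over WT level (horizontal axis) of the 8 factors in 4 T cell gates, with exact 95% intervals as lines that end at 6 where longer; the dotted line marks 2-fold, and open points have under 3 WT UMIs. All 8 points lie at or right of the dotted line in the Foxp3-negative Cd4 gate, from 1.02 for *Bcl6* to 4.65 for *Ascl2*, against 2 of 7 in the Cd8 gate.

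Innate-like cells, in which PLZF drives an effector program at rest, gave values that leaned on their overlap with the Cd4 gate. *Tox*, *Tox2*, *Maf* and *Batf* were 2-fold or more higher, 4 of 7 factors, where 8.71% of the 8658 genes with a mean of 10 CPM or more were. *Tox* was at 423 CPM (373 to 477) in WT, against 1199.7 CPM in DKO-severe (1143 to 1259). *Tox2* had 1 UMI in WT and 93 in DKO-severe, an observed log2 ratio of 5.39 (2.87 to 10.7). Of the gated cells 18 of 78 in WT and 45 of 111 in DKO-severe were also Cd4-gated, and without them only *Tox2* stayed at 2-fold or more, with *Tox* at a log2 ratio of 0.80, *Maf* at 0.61 and *Batf* at 0.56. *Bcl6*, at 0.65 (0.08 to 1.25) in all innate-like cells, was at 0.07 without the Cd4-gated ones and at -0.57 without cells that held granulocyte or monocyte marker UMIs.

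The B gate serves as a reference for cells outside the T lineage. *Irf4*, which B and plasma cells need, had its highest level there, at 183 CPM (115 to 277) in 15 WT cells and 127 CPM (110 to 147) in 216 DKO-severe cells. Of the 22 *Irf4* UMIs in WT, 15 came from the same cell, so the WT level does not describe the gate. *Bcl6* was at 75 CPM (34.3 to 142) and 71.7 CPM (58.8 to 86.7). *Prdm1* was at 58.3 CPM (7 UMIs) in WT and 8.71 CPM (13 UMIs) in DKO-severe; the WT cells also held 21119.5 CPM of *Jchain* and 2524 CPM of *Lyz2*, so they were not B cells alone. T cell factors were low in the DKO-severe B gate, with *Tox* at 53.6 CPM, *Tox2* at 15.4 CPM, *Maf* at 14.1 CPM, *Batf* at 24.1 CPM and *Ascl2* at 0 of 1491758 UMIs.

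Over all gates *Tox2* and *Maf* were each highest in DKO-severe Foxp3-negative cells, apart from the next group. *Batf* and *Tox* were highest in DKO-severe Foxp3-positive cells, at 188 and 2015 CPM. *Prdm1* was highest among T cells there too, at 21.7 CPM. Its interval, however, overlapped those of the innate-like gates of both mice and of the WT Foxp3-positive gate. For *Bcl6*, ranked from the highest level, each neighbour overlapped the next down to WT Foxp3-negative cells, and the Cd8 gates, at 34.5 and 31.7 CPM, came last with intervals below those of that gate. *Ascl2* was highest in DKO-severe Foxp3-negative cells, with the next highest at 1.45 CPM (2 UMIs), but the small gates with 0 UMIs allow up to 8.04 CPM in WT Foxp3-positive and 30.7 CPM in WT B-gated cells and cannot be placed below it.

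Shares of cells were compared at equal depth, since deeper cells show more genes. Each cell was thinned at random to 3800 UMIs, which left out 689 WT cells (10.5%) and 477 DKO-severe cells (7.48%), and gates were applied to the thinned counts. Thinning also removed transcripts that set the gates, and the DKO-severe Foxp3-positive gate fell from 336 to 102 cells. A cell that lost its *Foxp3* UMIs counted as Foxp3-negative, and cells with both *Cd4* and *Cd8* UMIs could enter a gate in the same way. In Foxp3-negative cells *Maf* was detected in 11% (9.33 to 12.9%) of the 1224 WT and 67.5% (65.3 to 69.6%) of the 1837 DKO-severe cells. *Tox2* was detected in 2.86% (2.00 to 3.95%) and 29.4% (27.3 to 31.5%), and *Tox* in 71.9% (69.3 to 74.4%) and 89.8% (88.3 to 91.2%). *Tox* was thus already found in most WT cells, and the gain in its level was larger than the gain in its share.

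*Batf* was found in 11.8% (10.1 to 13.8%) of WT and 34.9% (32.7 to 37.1%) of DKO-severe Foxp3-negative cells, and *Irf4* in 3.59% (2.62 to 4.8%) and 12.1% (10.7 to 13.7%). *Bcl6* was found in 13.3% (11.5 to 15.3%) and 25.5% (23.5 to 27.5%), *Prdm1* in 1.80% (1.13 to 2.71%) and 3.81% (2.98 to 4.79%), and *Ascl2* in 1 of 1224 and 41 of 1837 cells. Before thinning, at median depths of 5258 and 7969 UMIs, the *Bcl6* shares were 19.0% and 42.5%. For comparison, in DKO-severe B-gated cells at the same depth *Tox* was found in 11.1%, *Batf* in 7.41%, *Maf* in 6.88%, *Prdm1* in 2.65% (0.864 to 6.07%) and *Tox2* in 2.12% (0.580 to 5.33%). The WT share of *Tox2* and the *Prdm1* shares of both mice lie within those intervals and cannot be told from the B gate. For *Prdm1* that gate is no blank, since it held 3110 CPM of the plasma cell marker *Jchain* in DKO-severe. The *Prdm1* level of DKO-severe Foxp3-negative cells, 11.9 CPM, likewise lies within the interval of the DKO-severe B gate (4.64 to 14.9 CPM), and the results by *Prdm1* detection that follow rest on counts at this level.

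In DKO-severe Foxp3-positive cells (102 at equal depth, against 34 in WT) *Prdm1* was found in 12.7% (6.96 to 20.8%), apart from the 3.81% of Foxp3-negative cells. *Batf* was found in 47.1% (37.1 to 57.2%), *Maf* in 60.8% (50.6 to 70.3%), *Bcl6* in 26.5% (18.2 to 36.1%) and *Tox2* in 23.5% (15.7 to 33.0%). Each of these intervals overlapped that of DKO-severe Foxp3-negative cells, so the differences in level by *Foxp3* were not seen in these shares. *Ascl2* was found in 0 of the 102 cells, so at most 2.94% by the limit of 3 counts. In Cd8-gated cells *Bcl6* was found in 10.6% (9.50 to 11.8%) of 2898 WT and 12.1% (10.5 to 13.8%) of 1587 DKO-severe cells, and *Tox* in 65.6% (63.8 to 67.3%) and 54.2% (51.7 to 56.7%). Innate-like cells, 49 and 46 at this depth, had similar shares in both mice, such as 46.9% and 50.0% for *Maf* and 57.1% and 54.3% for *Tox*, with wide intervals. Before thinning, in the 78 and 111 cells that gave the levels (median depths 6660 and 8701 UMIs), *Maf* was found in 53.8% and 82.9%, *Tox* in 62.8% and 71.2% and *Tox2* in 1.28% and 23.4%. Level and share at equal depth thus come from different cells, and no order is read from them.

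**Figure D3:**
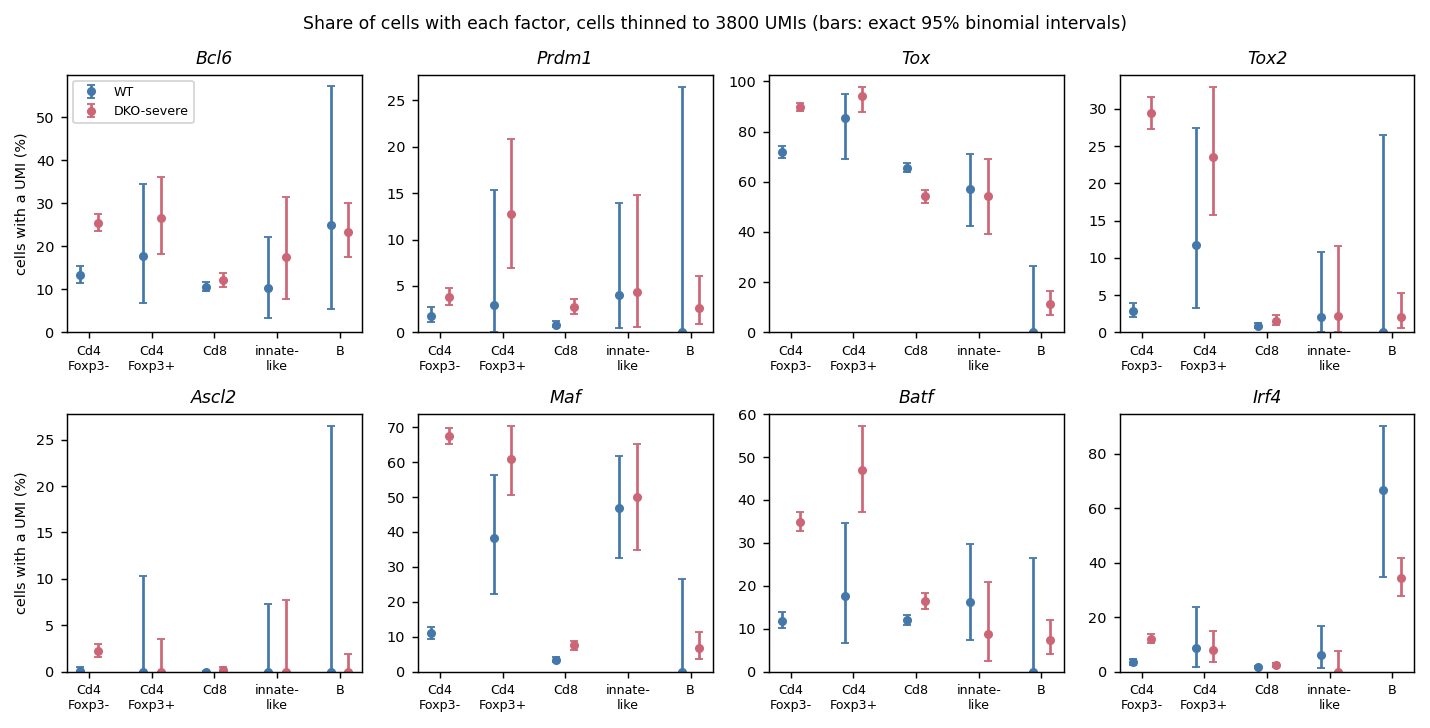
Share of cells with at least 1 UMI of each factor (percent, vertical axis from 0, own scale per panel) in 5 gates after thinning every cell to 3800 UMIs, for WT (blue) and DKO-severe (red), with exact 95% binomial intervals. In the Foxp3-negative Cd4 gate *Maf* stands at 11% in WT and 67.5% in DKO-severe and *Bcl6* at 13.3% and 25.5%, while the *Tox* share in the Cd8 gate is lower in DKO-severe.

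Cells that carry *Pdcd1* and *Cxcr5*, whose products PD-1 and CXCR5 define Tfh cells by flow cytometry, held most of the factors more often. There were 96 such cells in DKO-severe and 5 in WT at equal depth. In the 96 cells *Tox* was found in all 96, *Maf* in 85.4% (76.7 to 91.8%), *Tox2* in 69.8% (59.6 to 78.7%), *Bcl6* in 44.8% (34.6 to 55.3%) and *Ascl2* in 10.4% (5.11 to 18.3%). In the 1257 DKO-severe cells with neither transcript the shares were 86.4% for *Tox*, 61.3% (58.5 to 64.0%) for *Maf*, 21.5% (19.2 to 23.9%) for *Tox2*, 22.7% (20.4 to 25.1%) for *Bcl6* and 1.43% (0.851 to 2.25%) for *Ascl2*. *Batf*, at 35.4% and 33.1%, and *Irf4*, at 11.5% and 11.1%, did not separate these cells. *Prdm1* was found in 0 of the 96 cells (exact upper limit 3.77%) and in 4.61% (3.52 to 5.92%) of cells with neither, and these intervals overlap.

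Co-detection was then examined cell by cell. A WT Cd4-gated cell held a mean of 1.18 of the 8 factors and a DKO-severe cell 2.66. The share of cells with 3 or more factors was 7.23% in WT and 53.9% in DKO-severe, and no cell held more than 6. No such share was computed for other sets of 8 genes. The most frequent combination in WT was *Tox* alone, in 44.3% of cells, and in DKO-severe *Tox* with *Maf*, in 15.1% of cells against 4.93% in WT. *Bcl6* with *Tox*, *Tox2* and *Maf* was found together, without the other factors, in 81 DKO-severe cells (4.18%) and 2 WT cells.

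Of the 28 pairs of factors in the 1939 DKO-severe cells, 23 were detected together more often than their separate shares give and 5 less often. The odds ratio, which is 1 when detection of one gene does not change with the other, had a median of 1.45. The highest odds ratios were those of *Tox* with *Irf4* (5.59) and with *Tox2* (5.44), though only 193 cells lacked *Tox*, followed by *Tox2* with *Ascl2* (4.89, 27 cells against 11.9). By phi the pair of *Tox2* and *Maf* came first, at 0.23. *Tox2* and *Maf* were found together in 472 cells against 378.7 from the margins (odds ratio 3.37), and *Maf* was present in 83.7% of *Tox2*-positive and 60.4% of *Tox2*-negative cells. These are descriptions over the cells of 1 mouse, which share a library, and all phi coefficients of the pairs lay between -0.07 and 0.23. Their median was 0.05, where the median phi of each factor with 9481 genes lay between -0.0015 and 0.011. The share of all gene pairs found together more often than their margins give was not computed, so the count of 23 has no such reference.

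*Bcl6* was found more often with *Ascl2*, *Maf* and *Tox2*. In DKO-severe cells *Tox2* was present in 37.4% (33.1 to 41.8%) of the 495 *Bcl6*-positive and 26.2% (24.0 to 28.6%) of the 1444 *Bcl6*-negative cells, and *Maf* in 75.6% (71.5 to 79.3%) and 64.3% (61.7 to 66.7%). For *Batf*, at 34.5% and 35.9%, the odds ratio was 0.94. All of the 5 pairs below the margins held *Prdm1*, *Batf* or *Ascl2* as a partner, and the lowest was *Prdm1* with *Tox2*, at 12 cells against 24.1 (odds ratio 0.40).

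The antagonists themselves were seldom in the same cell, and *Prdm1* was rare in itself, at 4.28% of DKO-severe Cd4-gated cells. In DKO-severe Cd4-gated cells 482 held *Bcl6* without *Prdm1*, 70 held *Prdm1* without *Bcl6*, 13 held both and 1374 held neither, where the margins give 21.2 cells with both (odds ratio 0.53, 0.28 to 0.91 from the counting error of *Prdm1* in *Bcl6*-positive cells). *Prdm1* was present in 2.63% of *Bcl6*-positive and 4.85% of *Bcl6*-negative cells, and the exact intervals of these shares overlap. The interval of the odds ratio takes the share in *Bcl6*-negative cells as exact, so it is narrower than the full counting error. *Bcl6* was present in 15.7% of *Prdm1*-positive and 26.0% of *Prdm1*-negative cells. The odds ratio lay below 1 in all settings tried, from 0.33 to 0.54, and from 0.25 to 0.72 with a median of 0.38 over 20 further random thinnings. It was 0.53 in Foxp3-negative and 0.47 in Foxp3-positive cells alone, the latter from 2 cells with both. In WT cells 1 cell held both where the margins give 3.09, too few to compare.

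**Figure D4:**
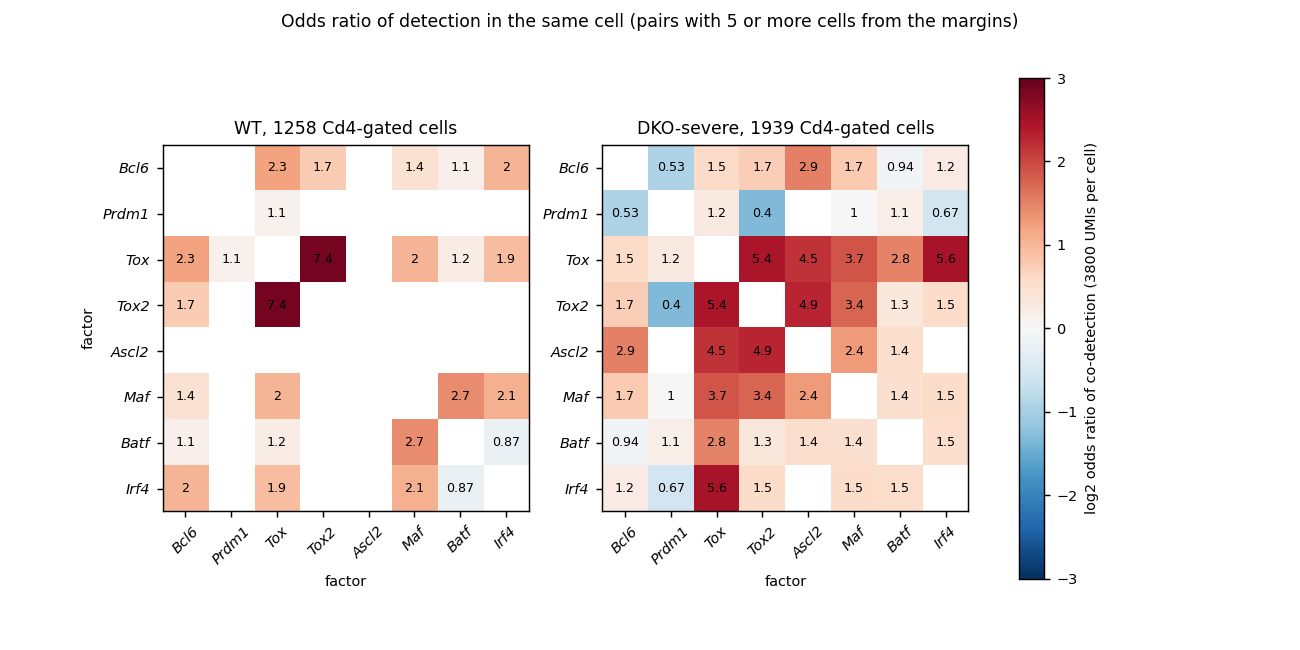
Odds ratio of detection in the same cell for each pair of factors (rows and columns) in WT and DKO-severe Cd4-gated cells thinned to 3800 UMIs; the colour is its log2, red above 1 and blue below, and cells are blank where the margins give under 5 cells. In DKO-severe *Prdm1* is blue with *Bcl6* (0.53), *Tox2* (0.40) and *Irf4* (0.67), while *Tox*, *Tox2* and *Maf* are red with each other.

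Cells with one antagonist differed from cells with the other in the Tfh pathway. Of 41 pathway genes detected in 2% or more of all 1939 cells, 9 had a higher share in *Bcl6*-only cells with intervals that did not overlap, where 1.95% of all 9607 genes did, and 6 had a higher share in *Prdm1*-only cells, where 2.59% did. *Cxcr5* was found in 18.9% (15.5 to 22.7%) of the 482 *Bcl6*-only cells and in 0 of the 70 *Prdm1*-only cells (exact upper limit 5.13%). *Tcf7* was found in 60.2% (55.6 to 64.6%) and 14.3% (7.07 to 24.7%), *Cd200* in 46.9% (42.4 to 51.5%) and 14.3%, and *Btla* in 60.8% (56.3 to 65.2%) and 27.1% (17.2 to 39.1%). The other genes higher with *Bcl6* were *Slamf6*, *Id3*, *Pou2af1*, *Bach2* and *Ikzf2*.

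The 6 pathway genes found more often in *Prdm1*-only cells were *Id2*, *Cxcr3*, *Tbx21*, *Ifng*, *Runx3* and *Foxp3*. *Id2*, an inhibitor of E proteins, was found in 71.4% (59.4 to 81.6%) of them and 38.4% (34.0 to 42.9%) of *Bcl6*-only cells. *Cxcr3*, the receptor of type 1 effector cells, was found in 25.7% (16.0 to 37.6%) and 5.81% (3.89 to 8.29%), *Tbx21* in 12.9% (6.05 to 23.0%) and 1.45% (0.586 to 2.97%), and *Ifng* in 14.3% and 3.32%. *Pdcd1*, at 33.0% in *Bcl6*-only and 31.4% in *Prdm1*-only cells, and *Il21*, at 20.3% and 15.7%, did not separate the classes beyond counting error, and of the other 6 factors only *Tox2* did, at 38.2% (33.8 to 42.7%) and 15.7% (8.11 to 26.4%).

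**Figure D5:**
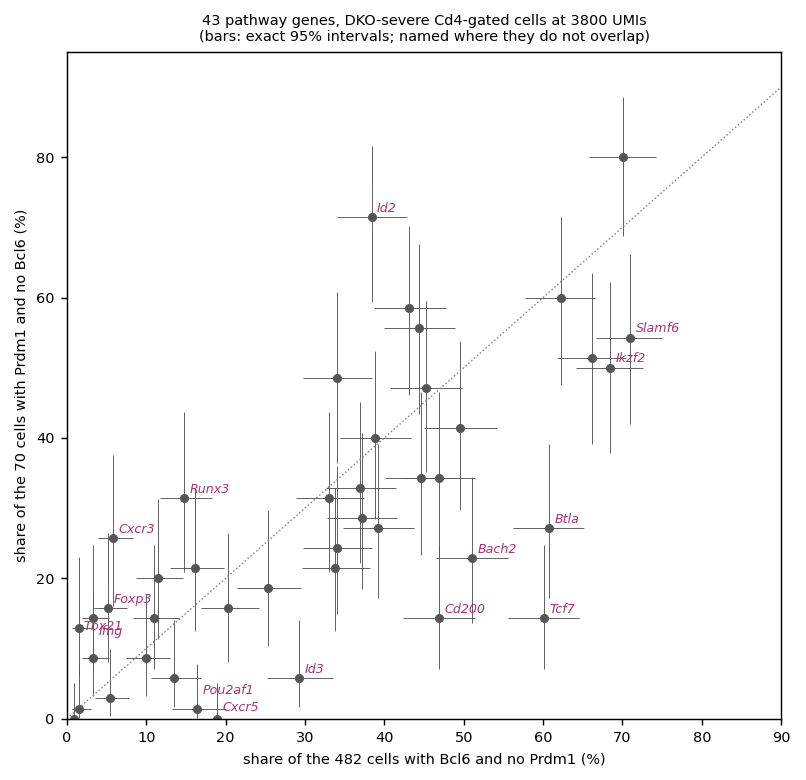
Share of DKO-severe Cd4-gated cells with each of 43 pathway genes among the 482 cells with *Bcl6* and no *Prdm1* (horizontal axis, percent) and the 70 cells with *Prdm1* and no *Bcl6* (vertical axis, percent), at 3800 UMIs per cell, with exact 95% intervals; genes are named where the intervals do not overlap and the dotted line marks equal shares. *Tcf7* lies far below the line at 60.2% and 14.3%, and *Id2* above it at 38.4% and 71.4%.

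The factors were not equally tied to the Tfh receptors and cytokines. *Cxcr5* was found in 36.6% (22.1 to 53.1%) of *Ascl2*-positive cells, 22.0% (18.6 to 25.6%) of *Tox2*-positive cells and 18.4% (15.1 to 22.1%) of *Bcl6*-positive cells, against 7.78% (6.42 to 9.33%) of *Tox2*-negative and 9.70% (8.22 to 11.3%) of *Bcl6*-negative cells. *Il21* was found more often with *Maf*, at 27.4% (25 to 29.9%) of *Maf*-positive and 6.91% (5.06 to 9.16%) of *Maf*-negative cells, with *Tox2*, at 31.9% (28.1 to 35.9%) and 16.1% (14.2 to 18.1%), and with *Irf4*, at 32.5% (26.5 to 38.9%) and 19.1% (17.2 to 21.0%). Of the 401 cells with *Il21*, 400 also held *Tox*. For *Bcl6* the *Il21* shares were 20% (16.6 to 23.8%) of positive and 20.9% (18.8 to 23.1%) of negative cells, which overlap. *Ikzf2*, which encodes the Treg factor Helios, was found in 77.0% (73.2 to 80.4%) of *Tox2*-positive and 52.3% (49.6 to 55.0%) of *Tox2*-negative cells.

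The genes whose detection was most like that of each factor were ranked by the phi coefficient over these 1939 cells, among 9481 genes. For *Prdm1* they were *Havcr2* (0.26), which encodes TIM-3, *Morrbid* (0.22) and *Tnip3* (0.21), with *Havcr2* in 44.6% of *Prdm1*-positive and 7.81% of other cells. For *Irf4* they were *Cd200* (0.18), *Egr2* (0.17) and *Egr3* (0.16), genes induced by T cell receptor signals. For *Batf* they were *Ikzf2* (0.17), *Bcl2a1b* (0.16) and *Rel* (0.14), and for *Tox* they were *Ralyl* (0.30), *Ikzf2* (0.27) and *Alcam* (0.27). *Ntng1* was among the 3 closest to *Bcl6* (0.14), *Tox2* (0.30) and *Ascl2* (0.16), and *Gm31814* led for *Bcl6* (0.15) and *Ascl2* (0.18). The others were *Ntrk3* for *Bcl6*, *Ralyl* and *Fbn2* for *Tox2*, *Hs6st3* for *Ascl2*, and *Ralyl*, *Flrt2* and *B3galt1* for *Maf*, with *Ralyl* at 0.36. Coefficients of this size in sparse counts are weak and are given as a description.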

How the data were processed

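The authors deposited 1 matrix of UMI counts per genotype, made per the file headers with Cell Ranger 7.1.0 on mm10 and not normalized. Seurat is also listed in the submitters' processing notes. Whether intronic reads were counted is not given in the sources used here. The matrices held 7189 WT barcodes (45294779 UMIs) and 7161 DKO-severe barcodes (69692053 UMIs) and shared 0 barcodes. The study gives 10000 loaded cells. In WT 3 barcodes carried more Hashtag 2 and were left out. Cells needed 500 or more detected genes and no more than 10% mitochondrial UMIs. Scrublet (scanpy 1.11.5) marked 0 doublets by itself, so cells above the limit of the highest 6% of scores were removed (419 WT, 388 DKO-severe).

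Counts were summed per gate and genotype and scaled to CPM. Log2 ratios are DKO-severe over WT, with fewer than 3 UMIs counted as 3, and with no ratio where both sums were 3 or fewer or where that floor turned the direction. Their intervals are exact, conditional on the gene's total. The share of all genes that reached 2-fold was taken over genes with a mean of 10 CPM or more. Shares are given with exact Clopper-Pearson 95% intervals. Where no cell held a transcript, the limit set by 3 counts or, beside another interval, the exact upper limit is printed. The calculations were tested on simulated data with known ratios and known co-detection.

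Alternatives changed the genes in the total, centring, doublet removal, weighting, added CPM, cell filters, exclusion of marked cells and the depth and seed of thinning. Leaving out cells with granulocyte or monocyte marker UMIs, leaving out Cd4-gated innate-like cells, and 20 further seeds were chosen after seeing the data. The members, gene lists and gates were chosen with earlier results of these data known. Named genes were the 8 factors, 43 pathway genes by role, the 3 genes with the highest phi for each factor, and marker genes where a result turned on them. Subsets of cells by *Pdcd1* and *Cxcr5* and the classes by *Bcl6* and *Prdm1* were set by name, without tests. For 1 gene of the pathway list no result is reported here.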

Additional observations from a re-analysis of the deposited data

Results flagged for a closer look

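The change of *Tox* between the mice pointed in opposite directions in different gates. It was lower in DKO-severe Cd8-gated cells (log2 ratio -0.20) and higher in Foxp3-negative (1.31) and Foxp3-positive (0.80) Cd4-gated and innate-like (1.51) cells. The difference between gates was not tested, since each value rests on 1 mouse per genotype. Over the alternatives the Cd8 value lay between -0.23 and -0.04 and the Foxp3-negative value between 1.15 and 1.38.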

How the results depend on the processing

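No paired analysis was possible because there was 1 mouse per genotype. In Foxp3-negative cells the count of factors at 2-fold or more lay between 6 and 8 over all alternatives. In Foxp3-positive cells it was 3, and 5 with proliferating cells left out. In Cd8-gated cells it was 2, 0 with 5 CPM added and 1 with limits of 200 genes and 5% mitochondrial UMIs. In innate-like cells it was 4, 1 with each cell weighted equally, 2 with proliferating cells left out and 1 with Cd4-gated cells left out. The *Bcl6* ratio of innate-like cells reversed to -0.68 without cells holding other lineages' markers and to -0.57 without cells holding granulocyte or monocyte marker UMIs. In each case the cause was not tested. The odds ratio of *Bcl6* and *Prdm1* lay within the counting interval of the reported 0.53 with another depth, doublet limit or set of cells, and over 20 further seeds ran from 0.25, below that interval, to 0.72, with a median of 0.38. Depth limits *Ascl2* and *Prdm1* most, and the Foxp3-positive WT gate rests on 459046 UMIs.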

Other observations

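Among 285 DKO-severe Cd4-gated cells with *Mki67* or *Top2a* at equal depth, *Prdm1* was found in 9.12% (6.05 to 13.1%), against 4.28% (3.42 to 5.28%) of all 1939 Cd4-gated cells, of which they are part, and *Bcl6* in 21.1% (16.5 to 26.3%), which overlaps the 25.5% (23.6 to 27.5%) of all. Among 48 cells with *Il10*, a cytokine that c-MAF can induce, *Maf* was found in 81.3% (67.4 to 91.1%), *Tox* in all 48, *Irf4* in 22.9% (12 to 37.3%) and *Prdm1* in 12.5% (4.73 to 25.2%). Over all 1939 cells *Maf* was found in 67.1% (65.0 to 69.2%), *Irf4* in 11.9% (10.5 to 13.4%) and *Prdm1* in 4.28%, and these intervals overlap those of the 48 cells. Helios-positive cells without *Foxp3* numbered 1064 in DKO-severe, and held *Tox2* in 38.8% and *Maf* in 77.2%, against 16.4% and 54.2% of the 773 cells without *Ikzf2* and *Foxp3*. No cause of these shares was tested.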
